A study of Mus musculus with 15 samples.

Results

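The angiopoietin and Tie receptor axis was followed through primary endothelial cell (EC) cultures of mouse bone marrow (BM). It comprises 6 genes, taken from the table by their symbols, out of 44674 genes in all: the ligands Angpt1, Angpt2 and Angpt4, the receptors Tek (which encodes Tie2) and Tie1, and Ptprb, which encodes the vascular endothelial phosphatase VE-PTP. Each symbol occurred once, and all 6 genes passed the filter on low counts.

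Tie2 is a receptor tyrosine kinase of ECs and of some hematopoietic cells. Angpt1, secreted by perivascular and mesenchymal cells, activates Tie2 and thereby, through the kinase Akt, restrains the transcription factor Foxo1. Angpt2 is made and stored by ECs, can act as a weak agonist or as an antagonist of Tie2 depending on context, and is itself a target of Foxo1. Tie1 binds no angiopoietin directly with high affinity and acts as a co-receptor of Tie2, while VE-PTP removes phosphate from Tie2. In the bone marrow, Angpt1 from stromal cells and Tie2 have been studied in the niche of hematopoietic stem cells and in the repair of sinusoids.

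Bulk RNA-seq counts were available for 15 libraries in 8 conditions. The BM endothelial cells (BMECs) came from adult Tie2-CreERT2;Rosa26-tdTomato mice, in which tamoxifen activates a Cre recombinase under the Tek promoter, so that the red reporter tdTomato (tdT) marks cells in which this promoter was active. Whole BM was cultured in EGM-2, an EC medium with growth factors such as VEGF, and this first culture is passage P0. Cells negative for CD45 and positive for tdT were sorted by surface endomucin (Emcn), a sialomucin of venous and sinusoidal ECs, into P0 Emcn+ and P0 Emcn- BMECs. Emcn- BMECs were also taken after 1 to 4 passages (P1 to P4). The lung libraries are, by the study's description, Emcn- cells obtained by sorting lung cultures, and the labels give only their lung origin. BM MSC (mesenchymal stromal cells) were the tdT+ and CD45-negative cells of Osx-Cre;Rosa26-tdTomato mice, in which Cre is driven by the promoter of osterix, and they grew in a different medium. The labels give the genotype as WT for all libraries. There were 2 libraries per condition and 1 for P4, which therefore has no spread. By the methods, replicates were independent cultures. The sort of BMECs for tdT selects cells in which a transgene with the Tek promoter was active when tamoxifen was given. How this relates to the level of Tek in culture was not tested.

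Library totals ran from 9914620 (P0 Emcn- replicate 2) to 39718807 counts (P0 Emcn- replicate 1). Values are given as counts per 1000000 counts of the library (CPM), and a count of 0 allows a level of up to 3 counts, or 0.0755 to 0.303 CPM. This limit covers counting error only. The labels name 4 batches. The paper's methods name 3 batches of replicates, sequenced on 2 instrument models, and these were not matched to the labels here. The P0 and lung libraries were made in batches that hold no passaged and no MSC library, and between these 2 sets the condition and the batch cannot be told apart. The EC label was checked on 8 endothelial markers, namely Cdh5, Pecam1, Kdr, Cldn5, Egfl7, Erg, Robo4 and Emcn, the gene of the protein used for the sort. Their summed level was 10161 to 11837 CPM in P0 Emcn+, 19.5 to 239 CPM in P0 Emcn-, 140 to 529 CPM in lung, 36.6 to 346 CPM in BM MSC and 26.1 to 46.7 CPM in P1 to P4. Cdh5, the VE-cadherin gene and a defining EC marker, was at 0.0564 to 2.33 CPM in P1 to P4. Not all markers were that low. In P1 to P4, Kdr was at 7.96 to 30.1 CPM and Pecam1 at 10.7 to 14.3 CPM, and the remaining markers were at most 3.68 CPM. In P0 Emcn- replicates 1 and 2, Kdr was at 14.9 and 1.82 CPM and Pecam1 at 47.8 and 5.14 CPM. The summed level of 6 mesenchymal markers was 188 to 226 CPM in P0 Emcn+ and 3498 to 16185 CPM in all other libraries. Only the P0 Emcn+ libraries had a larger endothelial than mesenchymal sum. By the limits for a call given below, 0 of the 8 endothelial markers were called between BM MSC and P0 Emcn-. That was beside 11.3% of all genes tested called higher and 7.45% called lower. The name BMEC below refers to the sort for tdT and not to these markers. In bulk samples, fewer cells of a type and less RNA per cell cannot be told apart.

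The 6 genes lie on 5 chromosomes of GRCm38 (GENCODE M21). Tek (ENSMUSG00000006386) spans chr4:94739289-94874976 on the plus strand and Tie1 (ENSMUSG00000033191) chr4:118471191-118490061 on the minus strand. Angpt1 (ENSMUSG00000022309) spans chr15:42424723-42676977 on the minus strand, Angpt4 (ENSMUSG00000027460) chr2:151911210-151945337 on the plus strand and Ptprb (ENSMUSG00000020154) chr10:116275523-116389535 on the plus strand. Angpt2 (ENSMUSG00000031465) occupies chr8:18690263-18741562 on the minus strand, within the body of Mcph1 (chr8:18595131-18803189, plus strand). Angpt2 and Mcph1 share no exonic base. The level of Mcph1 was 6.05 to 19.6 CPM over all libraries and lowest in P0 Emcn+, where Angpt2 was highest. Angpt1 shares 737 exonic bases, 14.2% of its exon length, with the antisense gene Gm17473, which had at most 0.233 CPM in any library. Whether counting used the strand is not given in the sources used here.

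The sequences upstream of Tek and Tie1 are shown because the reporter used for the sort is driven through a Tek promoter and because the ratio of these paralogous receptors differed between conditions. They come from RefSeq on GRCm38.p6, are written 5′ to 3′ on the strand of the gene, and stop before the first transcript start of GENCODE M21. Capitals mark GGAAG and its reverse complement CTTCC, a form of the core motif of ETS factors, a family active in ECs. Other forms, such as the shorter GGAA, were not searched, and the Tek stretch does hold GGAA as its reverse complement ttcc. The Tek stretch is chr4:94739039-94739288 (plus strand), and the Tie1 stretch is chr4:118490062-118490099 (minus strand).
Tek: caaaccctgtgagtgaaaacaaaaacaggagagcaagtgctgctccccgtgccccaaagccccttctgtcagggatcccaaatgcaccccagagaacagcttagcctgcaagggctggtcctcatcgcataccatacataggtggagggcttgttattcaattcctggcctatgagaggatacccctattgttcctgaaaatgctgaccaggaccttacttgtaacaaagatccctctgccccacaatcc
Tie1: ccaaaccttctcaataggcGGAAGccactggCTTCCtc
The 250 bases before the RefSeq start of Tek held 0 matches to GGAAG or CTTCC. The 250 bases before the RefSeq start of Tie1 (chr4:118489850-118490099) held 6, of which 2 lie in the stretch printed. The rest of the Tie1 window follows the first GENCODE start and is not printed. GGAAG was present on either strand in 64.1% of 32817 windows of this length. Neither window held the forkhead motif GTAAACA (3.16% of windows) or the GATA motif AGATAA (9.99% of windows). These matches describe letters in a window and not bound sites. Of the 6 genes, 3 matched an entry. Angpt4, also matched but not printed, held 4 matches to GGAAG or CTTCC in its 250 bases. Angpt1, Angpt2 and Ptprb are named only.

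Among the ligands, Angpt2 was the transcript with the widest range. P0 Emcn+ replicates 1 and 2 held 1769 and 2291 CPM of it, and the P0 Emcn- replicates 28.8 and 6.56 CPM. The lung libraries had 39.8 and 43.9 CPM, and BM MSC had 6.76 and 114 CPM. In the passaged cells it was 5.83 and 8.36 CPM at P1, 4.23 and 8.02 CPM at P2, 4.26 and 5.74 CPM at P3, and 3.35 CPM at P4. Both P0 Emcn+ libraries lay above all other libraries. Next in the order of condition means were BM MSC and lung, whose libraries overlapped, then P0 Emcn-, P1, P2 and P3, in which each condition overlapped the next, and the single P4 library lay below both P3 libraries.

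Angpt1, by contrast, was lowest in P0 Emcn+, at 2.22 and 1.82 CPM, and reached 46.8 and 41.3 CPM in P0 Emcn-. BM MSC had 63.1 and 63.3 CPM, and lung lay between the P0 populations at 24.9 and 15.2 CPM. Passaged Emcn- cells lay near the P0 Emcn- level, with 53.0 and 46.5 CPM at P1, 53.0 and 43.0 CPM at P2, 55.6 and 44.2 CPM at P3 and 77.7 CPM at P4. The ranges of P3, P1, P2 and P0 Emcn- overlapped from one to the next in the order of means, whereas P4, BM MSC, lung and P0 Emcn+ were each separate from their neighbours.

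Angpt4, a further Tie2 ligand of low abundance, was at most 16.0 CPM. It had 0.507 and 0.348 CPM in P0 Emcn+ against 16.0 and 2.32 CPM in P0 Emcn-, so that the P0 Emcn- replicates themselves differed widely. BM MSC had 3.40 and 3.62 CPM and lung 1.68 and 0.968 CPM. The passaged cells had 0.268 and 0.574 CPM at P1, 0.525 and 1.29 CPM at P2, 2.17 and 1.96 CPM at P3 and 1.62 CPM at P4. Both P3 libraries were above both P1 and both P2 libraries.

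Of the receptors, Tek was highest in P0 Emcn+, at 168 and 125 CPM, but remained well above the limit for a count of 0 in all libraries. P0 Emcn- cells had 20.3 and 49.4 CPM, and the replicate with fewer endothelial marker transcripts had more Tek. Passaged cells had 40.3 and 30.1 CPM at P1, 25.3 and 20.0 CPM at P2, 15.6 and 14.95 CPM at P3 and 19.1 CPM at P4. Lung libraries had 6.13 and 7.05 CPM, and BM MSC had 5.47 and 5.51 CPM. The lung and MSC values therefore lay below those of every library sorted as BMEC, passaged ones included. Only the neighbours P1 and P0 Emcn-, and P0 Emcn- and P2, overlapped in the order of means.

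Tie1 was far more restricted. Its level was 934 and 633 CPM in the Emcn+ libraries of P0, against 20.0 and 1.11 CPM in the Emcn- libraries. It was 13.4 and 56.0 CPM in lung and 1.18 and 14.9 CPM in BM MSC. In P1 to P3 it was between 0.175 and 0.446 CPM, from 6 to 15 counts per library, and at P4 it was at 0.0825 CPM, which is 3 counts and no more than the limit for a count of 0. Lung, P0 Emcn- and BM MSC overlapped in that order, as did P2 and P3.

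Ptprb followed Tie1 except in lung. P0 Emcn+ had 411 and 406 CPM and P0 Emcn- 10.1 and 0.504 CPM. Lung had 39.3 and 269 CPM, and BM MSC had 1.66 and 17.5 CPM. Passaged cells had 0.111 to 0.357 CPM at P1 to P3, from 3 to 12 counts per library, and 0.0550 CPM or 2 counts at P4. BM MSC and P0 Emcn- overlapped, and all other neighbours in the order of means were separate.

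**Figure D1:**
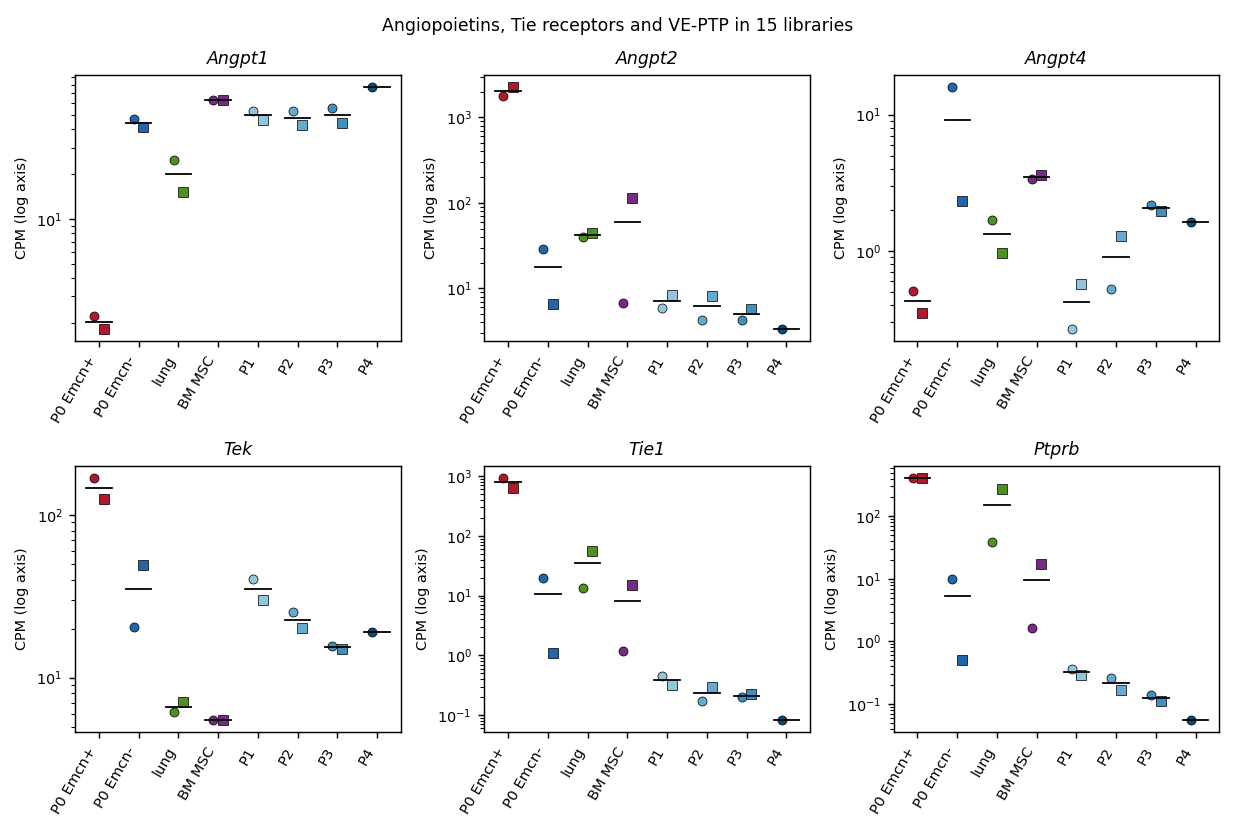
Level of each of the 6 genes in the 15 libraries, in CPM on a log axis; circles are replicate 1, squares replicate 2 and bars condition means. Angpt2, Tie1 and Ptprb sit highest in P0 Emcn+, Tie1 and Ptprb are near the floor in P1 to P4 while Angpt2 is at 3.35 to 8.36 CPM there, Angpt1 is lowest in P0 Emcn+, and Tek is at 14.95 to 40.3 CPM in P1 to P4.

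Since CPM does not correct for gene length, the ligands were set against each other per kilobase of merged exon (5205 bases for Angpt1, 3690 for Angpt2 and 2335 for Angpt4). In P0 Emcn+ the level of Angpt2 per kilobase was 1125 and 1779 times that of Angpt1. In P0 Emcn- the ratio was 0.867 and 0.224, and in P1 to P3 it was 0.108 to 0.263, so Angpt1 was the more abundant ligand transcript in all of these libraries. At P4 it was 0.0609. Lung libraries had ratios of 2.26 and 4.07, and BM MSC had 0.151 and 2.54, on either side of 1. Of the summed ligand level per kilobase, Angpt2 made up 99.9% in each P0 Emcn+ library, and Angpt1 made up 75.2 to 88.1% in P1 to P3 and 90.3% at P4. The largest share of Angpt4 was 29.0%, in P0 Emcn- replicate 1.

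The receptors showed a second reversal. Per kilobase (4712 bases for Tek, 4917 for Tie1), the level of Tek was 0.188 and 0.205 times that of Tie1 in P0 Emcn+. It was 0.479 and 0.132 times that of Tie1 in lung. In P1 to P3 it was 70.0 to 151 times that of Tie1, and in P4 242 times, although the counts of Tie1 behind these ratios are few. The P0 Emcn- replicates differed, with ratios of 1.06 and 46.5, as did BM MSC with 4.84 and 0.387. In both pairs the replicate with more endothelial marker transcripts had the lower ratio.

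**Figure D2:**
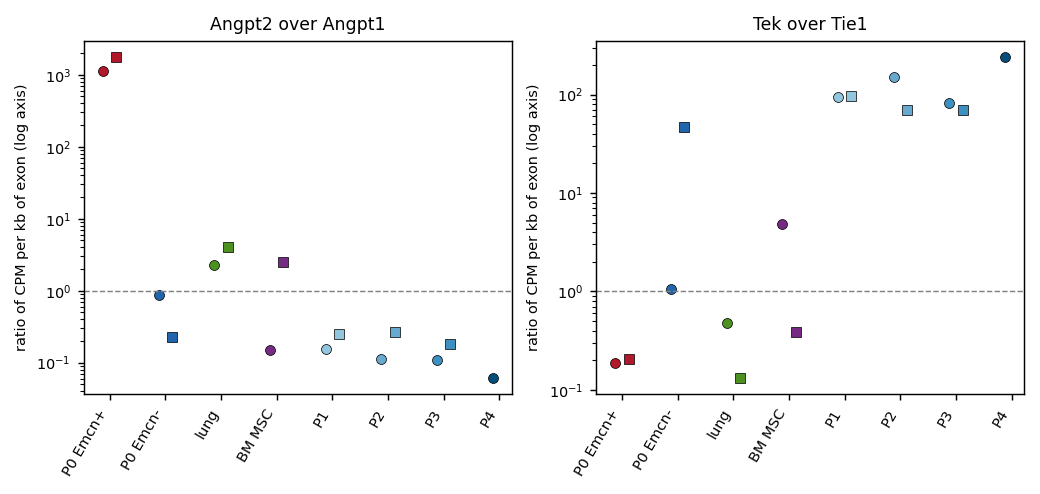
Ratio of Angpt2 to Angpt1 (left) and of Tek to Tie1 (right) in each library, from CPM per kilobase of exon on a log axis; the dashed line marks equal levels, circles are replicate 1 and squares replicate 2. The ligand ratio is 1125 and 1779 in P0 Emcn+ and below 0.3 in P1 to P4, and the receptor ratio is below 0.21 in P0 Emcn+ and at least 70.0 in P1 to P4.

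The first comparison asked how the 2 populations sorted as BMECs from the P0 culture differ. All 6 genes differed between cells sorted as P0 Emcn+ and as P0 Emcn- BMECs. Angpt2, Tie1, Ptprb and Tek were higher in Emcn+ cells and Angpt1 and Angpt4 lower. Calls came from edgeR's quasi-likelihood test over all 15 libraries. A gene was called where its adjusted p was under 0.05 and its log2 fold change beyond 1.5 in either direction. The standard error (SE) given beside many log2 fold changes was back-calculated from this test. It is the absolute log2 fold change divided by the square root of the F statistic, and so is no separate estimate. Of the 6 genes 4 were called higher and 2 lower, where 7.79% of the 19401 genes tested were called higher and 11.4% lower. The log2 fold change of Angpt2 was 6.84 (SE 1.21, edgeR adjusted p = 0.00159), from a mean of 2030.3 ± 369 CPM (SD, n = 2) against 17.7 ± 15.7 CPM. Tie1 differed by 6.15 (SE 1.33, adjusted p = 0.00522), and Ptprb by 6.15 (SE 1.34, adjusted p = 0.00539), both on the log2 scale. Tek differed by only 2.12 (SE 0.357, adjusted p = 0.00123). Angpt1 had a log2 fold change of -4.41 (SE 0.287, adjusted p = 3.65e-06) and Angpt4 of -4.40 (SE 0.857, adjusted p = 0.00287).

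Both P0 populations were present in the 2 batches labelled a and d, and each difference held within each. Tie1 was 46.6-fold higher in Emcn+ cells in batch d and 571-fold higher in batch a, and Tek was 8.29-fold and 2.52-fold higher. The 571-fold ratio rests on 11 counts of Tie1 in P0 Emcn- replicate 2. Angpt1 was 21.1-fold and 22.7-fold lower in Emcn+ cells, the most even of the 6 ratios. All 6 calls were kept under each of the 24 alternatives. Among these alternatives, the setting without a fold limit could not lose a call, and many left out a library of a condition not compared here. Without P0 Emcn- replicate 1, the log2 fold change of Angpt4 was -2.37, and the values of Angpt2, Tie1 and Ptprb were 8.33, 9.51 and 9.70. The summed markers moved with these genes, with the sums given above. Of the 8 endothelial markers, Emcn encodes the protein used for the sort, and its call is not independent of that sort. All 8 endothelial markers were called higher in Emcn+ cells, and all 6 mesenchymal markers were called lower (median log2 fold change -6.04). The part of either in the differences was not tested.

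Cells of lung cultures were compared next. They had less Tek than either P0 population and an Angpt1 level between them. Against P0 Emcn- BMECs, Tek was the only 1 of the 6 genes called, with a log2 fold change of -2.32 (SE 0.367, edgeR adjusted p = 0.00684). Called lower were 1.7% of genes tested and called higher 2.13%. Tek was 3.31-fold lower in batch d and 7.01-fold lower in batch a. The call was lost without lung replicate 1 (adjusted p = 0.0542) and in a fit of the compared groups alone (adjusted p = 0.121), in a range of 1.34e-07 to 0.121 over the alternatives. Angpt1 had an adjusted p of 0.0346 and a log2 fold change of -1.06, which is within the limit of 1.5. Ptprb had a log2 fold change of 4.76 (SE 1.26, adjusted p = 0.0597) and Angpt4 of -2.73 (adjusted p = 0.0768), and neither was called. With a replicate block, Angpt4 was called, at 2 of 6 genes called in all. Within batches, Ptprb in lung was 3.90-fold and 534-fold the level of P0 Emcn-, while Tie1 was 0.667-fold and 50.5-fold, so the direction of Tie1 turned between batches. The 534-fold and 50.5-fold ratios rest on 5 counts of Ptprb and 11 of Tie1 in P0 Emcn- replicate 2.

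Against P0 Emcn+ BMECs, which share the same lung libraries, 1 gene was called higher in lung and 3 lower, beside 12.6% and 8.48% of genes tested. Angpt1 was higher by 3.35 (SE 0.277, adjusted p = 1.53e-05) on the log2 scale. Angpt2 had a log2 fold change of -5.57 (adjusted p = 0.00342), Tek of -4.44 (adjusted p = 2.49e-05) and Tie1 of -4.49 (adjusted p = 0.0160), all by edgeR. Ptprb was not called, with a log2 fold change of -1.39 (SE 1.08, adjusted p = 0.360). Lung replicate 2 had 269 CPM of Ptprb, within 1.51-fold of its P0 Emcn+ partner, and its summed endothelial markers were at 529 CPM. The call for Tie1 was lost without lung replicate 1 (adjusted p = 0.104) and without P0 Emcn+ replicate 1 (adjusted p = 0.0510), in a range of 0.00198 to 0.104.

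BM MSC served as the stromal reference. They had an Angpt1 level close to that of Emcn- cells, less Tek than any library sorted as BMEC, and replicates that differed in the endothelial genes. Against P0 Emcn- BMECs, only Tek was called, with a log2 fold change of -2.56 (SE 0.370, edgeR adjusted p = 0.000756), beside 7.45% of genes called lower and 11.3% called higher. Angpt1 differed by 0.61 (SE 0.242, adjusted p = 0.0737). Angpt2, Angpt4, Tie1 and Ptprb were not called, with SEs of 0.729 to 1.12 on the log2 scale, and each of these 4 changed sign when 1 library was left out. Without MSC replicate 2, the log2 fold change of Angpt2 went from 1.80 to -1.31 and that of Ptprb from 0.76 to -1.73. Without MSC replicate 1, Angpt2 was called, and without P0 Emcn- replicate 2, Angpt4 was called, which made 2 genes in each case.

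Against P0 Emcn+ BMECs all 6 genes were called, 2 of them higher in MSC and 4 lower, beside 20.1% and 11.3% of genes tested. Angpt1 was higher by 5.02 (SE 0.293, adjusted p = 1.30e-06) and Angpt4 by 3.07 (SE 0.825, adjusted p = 0.0108) on the log2 scale. Tie1 had a log2 fold change of -6.58 (adjusted p = 0.00272), Ptprb of -5.38 (adjusted p = 0.00598), Angpt2 of -5.04 (adjusted p = 0.00377) and Tek of -4.68 (adjusted p = 1.20e-05). With the replicate block, Ptprb was no longer called (adjusted p = 0.0539, range over the alternatives 0.000209 to 0.0539). Angpt4 was not called when either P0 Emcn+ library was left out (adjusted p = 0.0502 and 0.0715, range 0.000671 to 0.0715).

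Passaging of the Emcn- cells was compared from P0 to P1 and from P1 to P3. At P1, Tek and Angpt1 had levels near those of P0 Emcn-, and Tie1 and Ptprb were at less than 0.5 CPM. Of the 6 genes only Angpt4 was called, lower at P1 by a log2 fold change of -4.33 (SE 0.854, edgeR adjusted p = 0.00874), beside 3.07% of genes called lower and 5.77% called higher. This call rested on P0 Emcn- replicate 1, which had 16.0 CPM. Without it the log2 fold change was -2.32 and the adjusted p 0.0613. It was also lost without P1 replicate 1 (adjusted p = 0.0881) and in a fit of the compared groups alone (adjusted p = 0.0825), in a range of 5.62e-06 to 0.0881. Tie1 missed the limit, with a log2 fold change of -4.69 (SE 1.46, adjusted p = 0.0513), and Ptprb had -4.01 (SE 1.498, adjusted p = 0.0889). Over the 24 alternatives, Tie1 was called in 9 (adjusted p 0.00456 to 0.732) and Ptprb in 4 (0.0259 to 0.950). Without P0 Emcn- replicate 1, the log2 fold changes were -1.35 and -0.48. Tek differed by 0.19 (SE 0.345, adjusted p = 0.736) and Angpt1 by 0.33 (SE 0.241, adjusted p = 0.356). No batch holds both P0 and P1 libraries.

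Between P1 and P3, which share 2 batches, 0 of the 6 genes were called by edgeR and 0 by DESeq2, beside 0.0773% of genes called higher and 0.144% called lower. By edgeR, 2 of the 6 had an unadjusted p under 0.05. These were Tek, with a log2 fold change of -1.17 (SE 0.349, adjusted p = 0.184), and Angpt4, with 2.35 (SE 0.817, adjusted p = 0.248). Tek was 2.58-fold lower at P3 than at P1 in batch b and 2.01-fold lower in batch c. Angpt4 was 8.12-fold and 3.42-fold higher at P3. In both batches the 2 genes kept their direction. Angpt1 differed by 0.04 (SE 0.240, adjusted p = 0.974), and this direction turned with the library left out. Tie1 and Ptprb were not called, with SEs of 2.04 and 2.32 on the log2 scale and 3 to 15 counts per library. Within batches b and c, Tie1 was 2.26-fold and 1.45-fold lower at P3 and Ptprb 2.53-fold and 2.58-fold lower. Angpt2 was 1.37-fold and 1.46-fold lower (log2 fold change -0.47, SE 0.986, edgeR adjusted p = 0.894). The share of all genes that kept a direction in both batches was not counted. The summed level of 6 macrophage markers was also lower at P3, at 14.6 and 10.4 CPM, than at P1, at 66.4 and 218 CPM. It was 33.3 and 35.6 CPM at P2 and 8.99 CPM at P4. Macrophages can express Tek, and their part in its values was not tested.

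BM MSC were also compared with the mean of P1, P2 and P3, whose second replicates share the batch of the MSC. Angpt2, Angpt4, Tie1 and Ptprb were called higher in MSC and Tek lower, or 4 and 1 of the 6 genes, beside 8.42% and 5.81% of genes tested. Tek had a log2 fold change of -2.16 (SE 0.327, edgeR adjusted p = 0.000928). Within batch c it was 3.96-fold and 3.94-fold lower in the 2 MSC libraries than in the passaged cells. Ptprb was higher by 5.37 (SE 1.04, adjusted p = 0.00352), Tie1 by 4.77 (SE 1.02, adjusted p = 0.00582), Angpt2 by 3.21 (SE 0.705, adjusted p = 0.00675) and Angpt4 by 1.83 (SE 0.565, adjusted p = 0.0319) on the log2 scale. Angpt1 differed by 0.26 (SE 0.193, adjusted p = 0.334). Without MSC replicate 2, only Tek was still called, and the log2 fold change was 0.11 for Angpt2, 2.06 for Tie1 and 2.90 for Ptprb. MSC replicate 2 had 346 CPM of summed endothelial markers and replicate 1 had 36.6 CPM, and the part of this in the result was not tested. Without MSC replicate 1 as well, Angpt4 was not called, and its call was lost in 7 of the 24 alternatives.

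**Figure D3:**
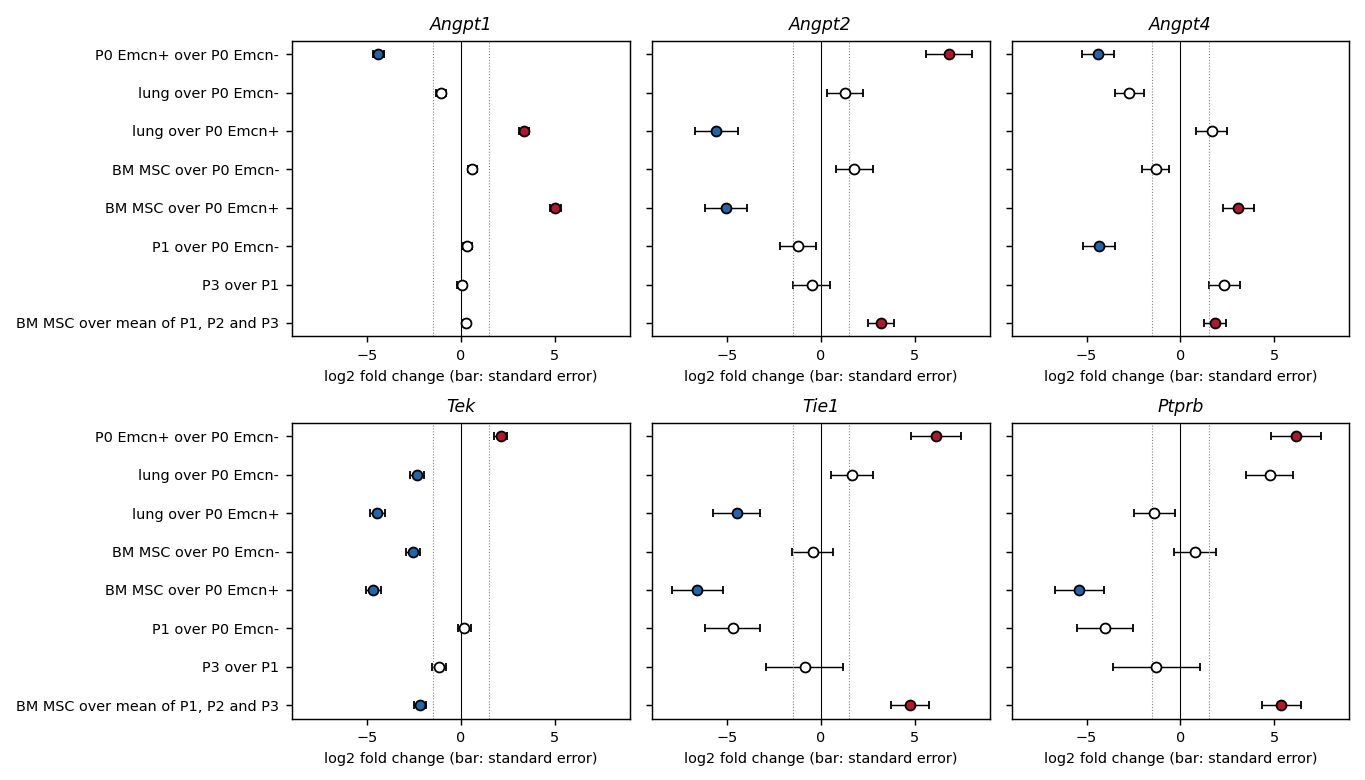
Log2 fold change of each gene in the 8 comparisons, with the SE, back-calculated from the F statistic, as a bar. Red points were called higher, blue points lower, and open points were not called. Dotted lines mark a log2 fold change of 1.5 in each direction. Angpt1 and Tek have short error bars throughout, while those of Tie1 and Ptprb reach 2.04 and 2.32 between P1 and P3.

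The replicates with more endothelial marker transcripts were also those with more Tie1, Ptprb and Angpt2 in P0 Emcn-, lung and BM MSC. P0 Emcn- replicate 1 had 239 CPM of the 8 markers and replicate 2 had 19.5 CPM, and Tie1 was at 20.0 and 1.11 CPM. In lung the markers were at 140 and 529 CPM, and Ptprb was at 39.3 and 269 CPM, while Angpt2 was nearly even at 39.8 and 43.9 CPM. Tek was at 20.3 and 49.4 CPM in the P0 Emcn- replicates, against the order of the markers. It was nearly even at 5.47 and 5.51 CPM in MSC replicates whose markers stood at 36.6 and 346 CPM, and at 6.13 and 7.05 CPM in the lung replicates, in the order of the markers. Relative to Cdh5, the CPM of Tie1 was 0.124 to 0.175 in all 4 P0 libraries, 0.338 and 0.327 in lung and 0.150 and 0.0952 in BM MSC. The CPM of Tek relative to Cdh5 was 0.0271 and 0.0243 in P0 Emcn+. It was 0.170 and 7.78 in P0 Emcn-, 0.155 and 0.0412 in lung and 0.696 and 0.0353 in BM MSC. P3 replicate 1 had 2 counts of Cdh5, and no ratio is given for it. In the other 6 libraries of P1 to P4, with 5 to 65 counts of Cdh5, the ratio was 12.9 to 86.9 for Tek and 0.138 to 1.2 for Tie1.

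**Figure D4:**
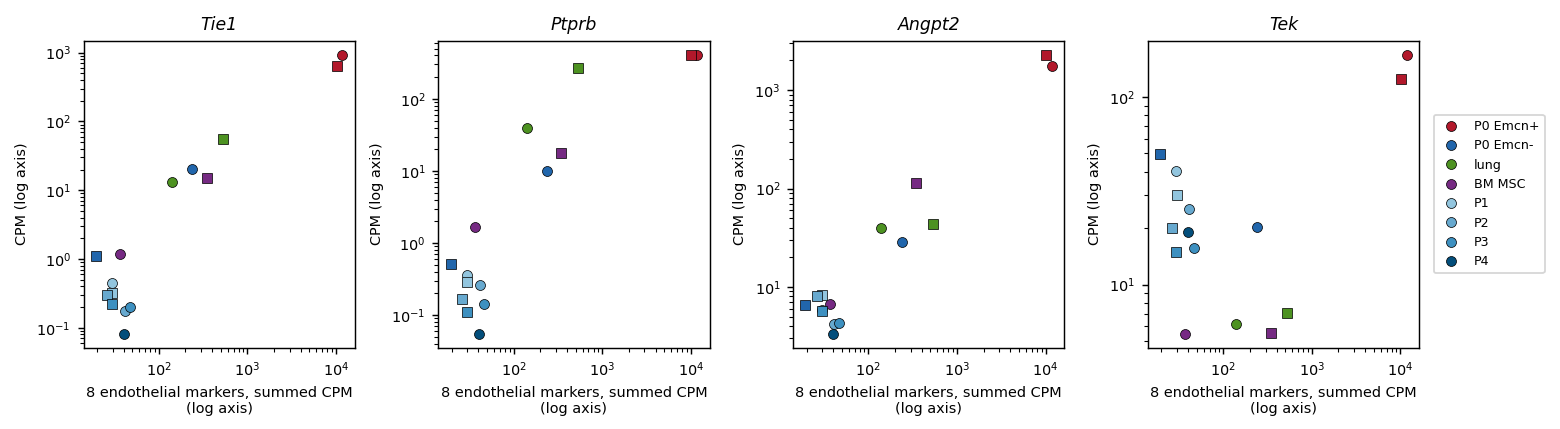
CPM of Tie1, Ptprb, Angpt2 and Tek (vertical log axes) against the summed CPM of 8 endothelial markers (horizontal log axes) in the 15 libraries; colours are conditions, circles replicate 1 and squares replicate 2. Tie1, Ptprb and Angpt2 are highest in P0 Emcn+, the libraries with the most marker transcripts, while Tek spans 5.47 to 49.4 CPM among the libraries with 529 CPM of markers or less.

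A list of 20 genes that act with Tie2 and Tie1, as ligands, adaptors, kinases, targets or partners, gave the context. Of these, 19 were tested and Grb7 was not. Between P0 Emcn+ and P0 Emcn-, 5 were called higher, 2 lower and 12 neither way, beside 7.79% of all genes tested called higher and 11.4% lower, so the 2 lower calls among 19 were near the share of all genes. Their median log2 fold change was 0.46, and that of all genes tested was -0.06. The genes called higher were Nos3, Rasip1, Foxo1, Klf2 and Lect2. Nos3, the endothelial nitric oxide synthase gene, was at 181 and 149 CPM in Emcn+ and 6.55 and 0.605 CPM in Emcn- (log2 fold change 5.41, edgeR adjusted p = 0.00353). Rasip1, a regulator of GTPases in ECs, was at 313 and 292 CPM against 7.70 and 0.101 CPM (log2 fold change 6.12, adjusted p = 0.00176). Foxo1 was at 180 and 174 CPM against 35.2 and 64.9 CPM (log2 fold change 1.86, adjusted p = 0.000554), and the passaged cells had 57.1 to 72.5 CPM of it. Klf2, a transcription factor induced by flow, was at 25.3 and 35.2 CPM against 8.13 and 12.8 CPM (log2 fold change 1.58, adjusted p = 0.00979). Lect2, which has been described as a Tie1 ligand, had at most 0.541 CPM in any library.

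The genes called lower were Svep1 and Grb14. Svep1, a large matrix protein that binds Tie1, was at 15.8 and 21.4 CPM in the Emcn+ cells, against 1183 and 1538 CPM in the Emcn- cells (log2 fold change -6.16, SE 0.439, edgeR adjusted p = 6.40e-06). It stood at 402 to 860 CPM in P1 to P4 and at 1522 and 1838 CPM in BM MSC. Grb14, an adaptor that binds receptor tyrosine kinases, was at 0.475 and 0.464 CPM against 7.93 and 14.9 CPM (log2 fold change -4.53, adjusted p = 0.000369), and in BM MSC it was at 154 and 119 CPM. Among the kinases, phosphatases and general adaptors of the list that were not called, Pik3ca and Ptpn11 had adjusted p of 0.574 and 0.506. Pik3r1 (log2 fold change -1.31, adjusted p = 0.00350), Shc1 (-1.24, 0.000249), Grb2 (0.69, 0.00140) and Akt1 (0.46, 0.0154) passed the p threshold of edgeR but were within the fold limit.

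In the other comparisons the calls among the 19 are given beside the shares of all genes tested. Lung against P0 Emcn- had 0 calls, where 2.13% of all genes were called higher and 1.7% lower (median log2 fold change 0.09, and 0.00 over all genes). Lung against P0 Emcn+ had 3 higher and 5 lower, beside 12.6% and 8.48% of all genes (median -0.39, all genes 0.06). BM MSC had 1 higher and 2 lower against P0 Emcn-, beside 11.3% and 7.45% (median -0.08, all genes 0.01), and 3 higher and 6 lower against P0 Emcn+, beside 20.1% and 11.3% (median -0.34, all genes 0.09). P1 had 0 higher and 2 lower, Nos3 and Rasip1, against P0 Emcn-, beside 5.77% and 3.07% (median 0.00, all genes 0.02). P3 against P1 had 0 calls, beside 0.0773% and 0.144% (median -0.02, all genes -0.01). Against the mean of P1, P2 and P3, BM MSC had 4 higher, namely Grb14, Nos3, Rasip1 and Klf2, and 0 lower, beside 8.42% and 5.81% (median -0.07, all genes 0.01). With 19 genes, counts of 1 to 3 were near these shares in the comparisons where the shares were 7.45% to 20.1%.

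**Figure D5:**
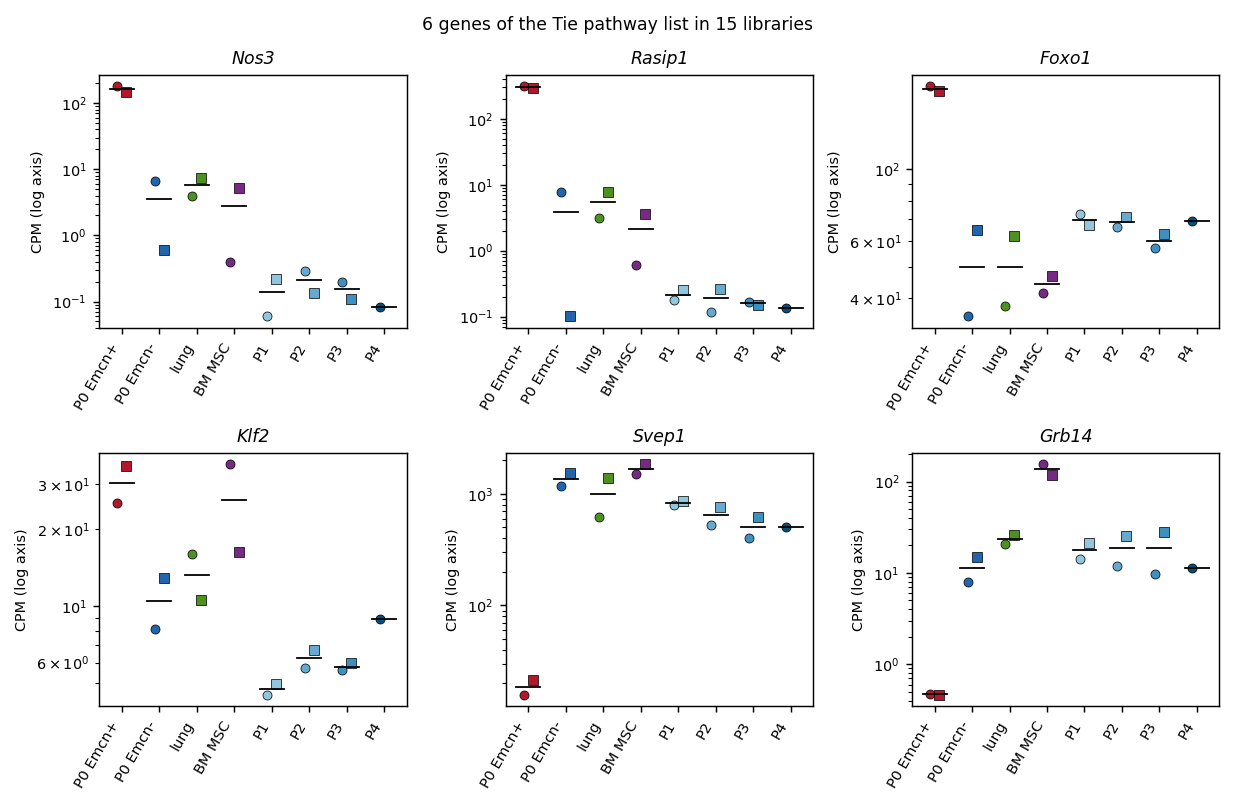
Level of 6 genes of the Tie pathway list in the 15 libraries, in CPM on log axes; circles are replicate 1, squares replicate 2 and bars condition means. Nos3 and Rasip1 follow the pattern of Tie1, Svep1 and Grb14 are lowest in P0 Emcn+, and Foxo1 stays at 35.2 to 72.5 CPM outside P0 Emcn+.

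The angiopoietin-like genes share the structure of the angiopoietins but do not bind Tie1 or Tie2. Of these, 6 listed genes were tested. Between P0 Emcn+ and P0 Emcn-, Angptl4 was called higher and Angptl2 and Angptl1 lower, beside 7.79% and 11.4% of all genes tested (median log2 fold change -4.24, all genes -0.06). Angptl4, an inhibitor of lipoprotein lipase, was at 232 and 359 CPM against 79.5 and 59.5 CPM (log2 fold change 2.12, edgeR adjusted p = 6.85e-05), and at 18.1 to 43.6 CPM in P1 to P4. Angptl2 was at 3.33 and 5.60 CPM against 197 and 100.05 CPM (log2 fold change -5.03, adjusted p = 8.70e-06). Angptl7 was at 0.957 and 6.76 CPM in P0 Emcn-, against 98.6 and 415 CPM at P1 (log2 fold change 6.41, SE 1.498, adjusted p = 0.0185), where it was the 1 listed gene called. The passaged libraries of batch b had 95.4 to 129 CPM of Angptl7 and those of batch c 415 to 739 CPM. P1 had 1 higher and 0 lower in all, beside 5.77% and 3.07% of all genes (median -0.43, all genes 0.02). In the remaining comparisons, lung had 0 higher and 1 lower against P0 Emcn-, beside 2.13% and 1.7% (median -0.39, all genes 0.00), and 2 higher and 1 lower against P0 Emcn+, beside 12.6% and 8.48% (median 3.82, all genes 0.06). BM MSC had 1 higher and 0 lower against P0 Emcn-, beside 11.3% and 7.45% (median 0.73, all genes 0.01), and 4 higher and 1 lower against P0 Emcn+, beside 20.1% and 11.3% (median 5.29, all genes 0.09). Against the mean of P1, P2 and P3 it had 2 higher and 0 lower, beside 8.42% and 5.81% (median 0.98, all genes 0.01), and P3 against P1 had 0 calls, beside 0.0773% and 0.144% (median -0.19, all genes -0.01). With 6 genes, a count of 1 cannot be set apart from these shares.

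The genes whose pattern was most like each of the 6 were found by Pearson's correlation of log2(CPM + 0.5) over the 8 condition means, among genes with a mean of at least 5 CPM. These values describe 8 points that share their libraries, and for 5 of the 6 genes P0 Emcn+ is the extreme point. For Tie1 they were Esam, Ecscr, Mmrn2, Arhgef15 and Fgd5, with r of 0.993 to 0.998. Esam, an adhesion molecule of EC junctions, had 448 CPM in P0 Emcn+ and 0.0550 CPM at P4. For Ptprb they were Gch1, Gata2, Dcp2, Lin9 and Tmtc2 (0.976 to 0.989), and Gata2 had means of 39.8 CPM in P0 Emcn+ and 25.9 CPM in lung. For Angpt2 they were Gm17018, Ppp1r16b, Cdk17, Mpzl1 and Bambi (0.991 to 0.993). The correlation takes no account of the size of a change. Condition means of Gm17018 ran from 7.89 to 14.3 CPM, and those of Angpt2 from 3.35 to 2030.3 CPM. For Tek they were Ifngr1, Sik1, Wdr91, Vsir and Pctp (0.964 to 0.993), none of them an EC marker of the list, and Ifngr1, a receptor chain for interferon gamma, had 469 CPM in P0 Emcn+, 251 CPM at P1 and 106 CPM in BM MSC. For Angpt1 they were Arsj, Insyn1, Trabd2b, Tspyl4 and Hebp2 (0.985 to 0.991), and for Angpt4 Grhpr, Hk2, Atic, Pus7 and Sod2 (0.920 to 0.936). Among the 6 genes, the highest value was 0.967, between Tie1 and Ptprb, followed by 0.960 between Angpt2 and Tie1, whereas Tek and Tie1 had 0.390 and Angpt1 and Angpt2 -0.900.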

How the data were processed

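The study's bulk RNA-seq comprises 15 mouse libraries, and the paper's other assays were not used. By the methods and labels, the authors mapped reads to GRCm38 with STAR, estimated transcript abundance with Salmon (versions not given in the sources used here) and combined it per gene. The authors deposited unnormalized expected counts as whole numbers, and the rounding is not described. Conditions and batches came from the labels. Here, R 4.3.3 and edgeR 4.0.16 were used with TMM factors, the filterByExpr filter (at least 10 counts, 15 in total) and the quasi-likelihood test over all 15 libraries with 1 coefficient per condition, leaving 19401 genes, 7 residual and 3.07 prior degrees of freedom. P-values were adjusted by Benjamini-Hochberg over all genes tested. CPM uses library totals, and exon lengths merge all GENCODE M21 exons of a gene. Replicates differed by more than counting noise in each condition (chi-square per degree of freedom 38.6 to 129).

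Alternatives were RLE factors, DESeq2 1.42.0, DESeq2 with ashr 2.2.63, other filters, a replicate block of 2 batch terms, only the compared groups, no fold limit, each library left out in turn and, added after seeing the data, no scaling factors. A library whose partner is left out is assumed to vary like the other groups. By the labels, replicates of the same number share a batch among the P0 and lung libraries, and likewise among P1, P2 and P3. Their deviations from condition means correlated across genes by 0.139 to 0.209 and 0.354 to 0.451, and by 0.000519 to 0.127 where no batch was shared. The second batch term sets the level of BM MSC, both of 1 batch, from the passaged libraries.

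Named were the 6 genes, called genes of the pathway and family lists, marker genes, the 5 genes most like each of the 6, and genes overlapping them. The 6 genes and the lists were chosen with earlier results of these data known. The fit was also tested on simulated data. Of the family list, 1 gene is not reported here.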

Additional observations from a re-analysis of the deposited data

How the results depend on the processing

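Over 430 values from settings other than leaving a library out, log2 fold changes of the 6 genes kept direction and side of the threshold in 411, lost a call in 4 and gained one in 15. The setting without a fold limit uses the main fit and can only gain calls. Over 720 values with 1 library left out they kept both in 680, lost a call in 16, gained one in 13 and changed sign in 11, and the cause was not tested. Tie1 and Ptprb were not tested between P1 and P3 in the fit of the compared groups alone. For lung against P0 Emcn-, with 1 gene called, DESeq2, ashr and no filter each called 3, the replicate block 2, no fold limit 2, the compared groups alone 0, and leaving out a library 0 to 2. For P1 against P0 Emcn-, with 1 called, DESeq2, ashr and no filter each called 3, no scaling factors 2, the compared groups alone 0, and leaving out a library 0 to 3. Leaving out a library gave 3 to 5 calls for lung against P0 Emcn+, 1 to 2 for BM MSC against P0 Emcn-, 5 to 6 against P0 Emcn+ and 1 to 5 against the mean of P1, P2 and P3. The replicate block ended the call of Ptprb for BM MSC against P0 Emcn+ (log2 fold change -5.15) and changed no call other than this one and Angpt4 in lung.

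Signs turned with the library left out in BM MSC against P0 Emcn-, where log2 fold changes ran from -2.13 to 0.68 for Angpt4, -3.15 to 2.90 for Tie1, -1.73 to 4.29 for Ptprb (-0.04 without P0 Emcn- replicate 2) and -1.31 to 3.26 for Angpt2, with 0.46 for Tie1 without MSC replicate 1. They also turned in P1 against P0 Emcn- for Angpt2 (-1.89 to 0.26) and Tek (-0.33 to 0.93, and -0.06 without P1 replicate 1), and in P3 against P1 for Angpt1 (-0.17 to 0.23, and -0.07 without P1 replicate 2). On TMM-scaled CPM, P1 and P2 traded places in the order for Angpt1, and P0 Emcn+ and P1 for Angpt4.

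Over all genes, 743 calls for lung against P0 Emcn- became 145 in the compared groups alone and 406 to 776 with a library left out (406 without lung replicate 1, 455 without P0 Emcn- replicate 1). For P1 against P0 Emcn-, 1715 became 968, and 805 to 2196 with a library left out (854 without P0 Emcn- replicate 1, 805 and 930 without P1 replicates 1 and 2). For P3 against P1, 43 became 303 with DESeq2, 150 with ashr, 170 without a filter, 106 with the replicate block, 153 in the compared groups alone and 0 to 78 with a library left out. BM MSC against P0 Emcn- had 3630 calls, and 2396 in the compared groups alone. Without a fold limit, counts went from 3725 to 6609 for P0 Emcn+ against P0 Emcn-, from 4086 to 7209 for lung against P0 Emcn+, from 3630 to 6853 and 6082 to 9996 for BM MSC against P0 Emcn- and P0 Emcn+, from 1715 to 3387 for P1 and from 2761 to 6206 for BM MSC against the passaged mean. Without scaling factors the median log2 fold change of all genes was -0.12 for P1 against P0 Emcn- and 0.10 for BM MSC against the passaged mean. Depth limits Tie1 and Ptprb in P1 to P4, at 2 to 15 counts per library.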

Other observations

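The remaining marker lists, fixed with the 6 genes, are given as values. Mural markers, of the pericytes and smooth muscle cells around vessels, summed to 69.7 to 175 CPM in P1 to P4 and to 1043 and 1361 CPM in BM MSC. Against P0 Emcn+, 5 of 6 were called higher in BM MSC and 1 (Mcam) lower, beside 20.1% and 11.3% of all genes tested. Between P0 Emcn+ and P0 Emcn-, 1 of 6 was called higher and 3 lower, beside 7.79% and 11.4% of all genes. All 6 macrophage markers were called lower in lung and in BM MSC than in P0 Emcn-, beside 1.7% and 7.45% of all genes. The P0 populations differed in 1 of 6, Cd68, which was higher in P0 Emcn+, beside 7.79% of all genes. With 6 genes, a count of 1 cannot be set apart from these shares. Of the 4 osteolineage markers, all 4 were called higher in BM MSC than in P0 Emcn+, beside 20.1% of all genes. Of these, 2 (Alpl and Runx2) were called lower in P0 Emcn+ than in P0 Emcn-, beside 11.4% of all genes. Of the 4 megakaryocyte markers 2 were tested, and the list summed to 1.10 to 7.06 CPM. The 3 lung epithelial markers summed to at most 0.321 CPM in any library, were at 0 in both lung libraries and were not tested.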
